A study of Homo sapiens with 9 samples.

Results

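Kelly and SH-SY5Y are established human neuroblastoma cell lines, and their polyadenylated RNA was compared in 3 libraries each, 6 of the 9 libraries of the series. The labels give MYCN as amplified in Kelly and as not amplified in SH-SY5Y. Both lines were untreated, grown in DMEM/F12:MEM with 10% IFS and collected at 70% confluence, and their RNA, taken with Trizol, entered NEBNext Ultra library preparation. The remaining 3 libraries, from the MYCN-amplified line BE(2)C, entered the same fit and are given here as side values. SH-SY5Y is the single line without amplification, so a difference of MYCN status and any other difference of that line cannot be told apart. The labels do not say whether the libraries came from separate cultures, and p-values therefore cover the spread of these libraries alone, part or all of which may be technical.

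Neuroblastoma arises from neural crest cells on their way to becoming sympathetic neurons and adrenal chromaffin cells. Such cells make noradrenaline from tyrosine through tyrosine hydroxylase, dopa decarboxylase and dopamine beta-hydroxylase, load it into vesicles and store it with granins and peptides. Their growth cones read semaphorins, ephrins and adhesion molecules, and their identity is held by transcription factors such as HAND2 and GATA3. The questions below are which of these systems, and which other families, differ between the lines beyond MYCN itself.

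Values are given as scaled TPM. This is the share of a gene in the gene total on a per-million scale, divided by a trimmed-mean factor for each library. Fold changes are Kelly over SH-SY5Y on the log2(scaled TPM + 1) scale with their standard error, a scale on which low genes appear to change less than they do, and adjusted p-values come from limma with the Benjamini-Hochberg method. How deeply the libraries were sequenced is unknown from TPM values, and no counting interval is given. Of 13078 genes tested, 7234 (55.3%) passed an adjusted p of 0.05, 3677 higher in Kelly (28.1%) and 3557 lower (27.2%). A change of at least 4-fold was called for 1102 genes (8.43%), 525 higher (4.01%) and 577 lower (4.41%). A gene list in which about 55.3% of the members pass is therefore at the background, and lists are read against these shares. All Kelly libraries lay above all SH-SY5Y libraries for 4199 of the 13078 genes and below them for 4131. The groups overlapped for 4748, so groups without overlap are the usual state.

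**Figure D1:**
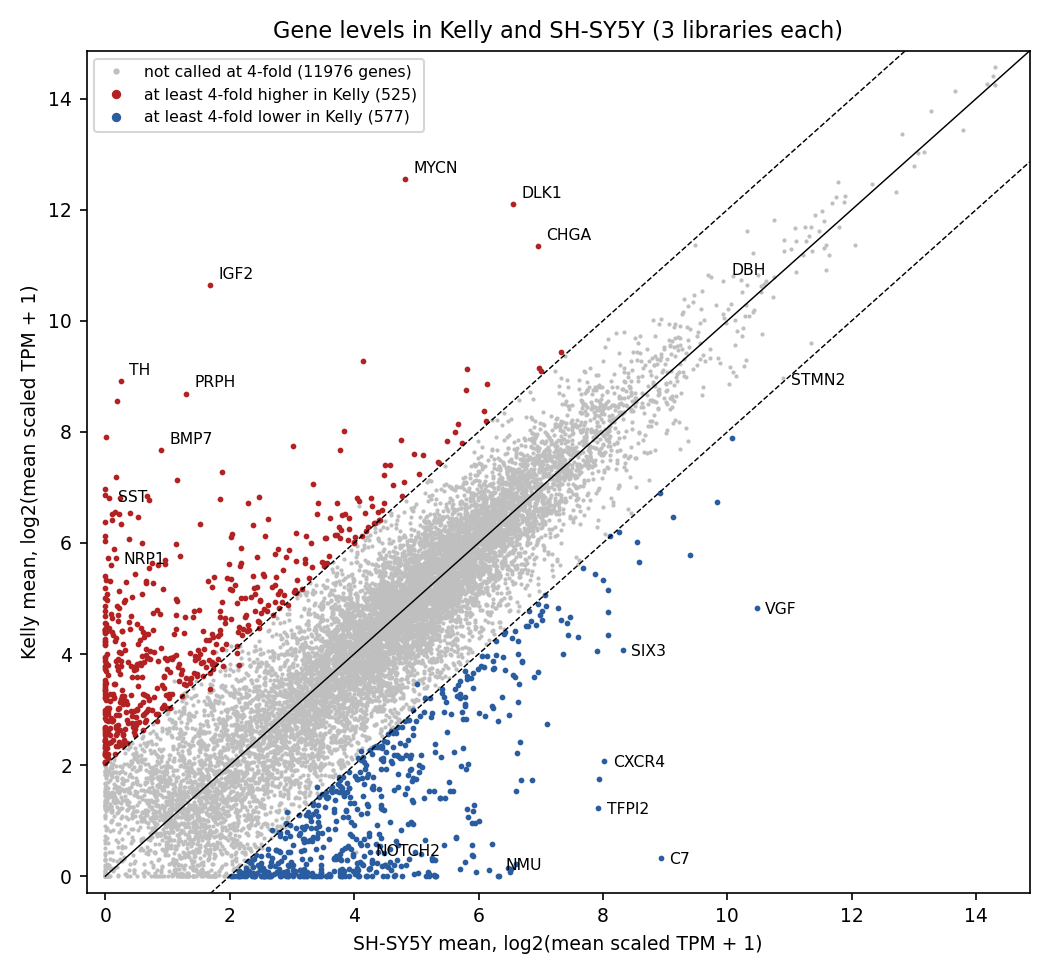
Mean level of each tested gene in Kelly (vertical axis) against SH-SY5Y (horizontal axis), both as log2(mean scaled TPM + 1), with 3 libraries a line. Red and blue points are the 525 genes called at least 4-fold higher and the 577 called at least 4-fold lower in Kelly, gray points are all other tested genes, and dashed lines mark a 4-fold difference.

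Synthetic spike-in RNA took 89.0% to 90.6% of the deposited TPM total in Kelly and 83.7% to 84.6% in SH-SY5Y, and genes took most of the rest. Over 61 abundant spike-ins, the SD of log2 ratios was 0.061 to 0.103 between libraries of 1 line and 0.320 to 0.379 between Kelly and SH-SY5Y. The spike-in shifts between the lines ran from -1.42 to 0.47 on the log2 scale, and 1 of the 61 passed 1 in size. For gene changes between these bounds, a difference of the libraries and a difference of the lines cannot be told apart. This holds for every gene change of that size below, also where it is not repeated. Markers of most other cell types were low, and those of fibroblasts, which were higher, are given with the matrix genes. The summed level of 7 Schwann cell markers was 1.97 to 4.24 in Kelly and 2.41 to 3.48 in SH-SY5Y, and that of 6 leukocyte markers was 7.37 to 12.3 and 8.38 to 9.77. Of the leukocyte markers, 2 reached 1 in every Kelly library and 3 in every SH-SY5Y library. The 6 epithelial markers summed to 6.97 to 12.3 in Kelly and 5.79 to 6.78 in SH-SY5Y. Of these, 1 reached 1 in every Kelly library and 2 in every SH-SY5Y library. Single markers below 0.1 in all 6 libraries included HBB, ALB, PECAM1, CD3E, KRT5 and CDH19. The 12 neuroblast markers summed to 9214 to 10866 in Kelly and to 5637 to 5825 in SH-SY5Y, and 12 and 11 of them reached 1 in every library of the line. The most abundant members dominate this sum, and members went both ways. CHGA, CHGB, DBH and TH were higher in Kelly and HAND2 and GATA3 lower, as given below, so the sum does not rank the lines. Scaling to library totals moved the median of all genes to -0.13, and leaving the values as deposited moved it to -0.55. On the deposited values 886 genes were higher and 6461 lower of 10279 tested, so lists are pulled toward lower there. List counts on the deposited values are given beside those on scaled values and are to be read against these numbers. Low values also need care, because some genes that every cell uses were listed near 0. HSPA8, a constitutive chaperone, was at 0.639, 1.91 and 3.20 in Kelly, against 2.91, 4.32 and 4.73 in SH-SY5Y. RPS18, a protein of the small ribosomal subunit, was at 0.725, 0.234 and 0 in Kelly and at or below 0.354 in SH-SY5Y. TUBB, a main beta-tubulin, was at 31.1, 28.6 and 29.2 against 0.275, 0 and 0.415. These 3 genes were chosen after their values were seen. A value at or near 0 below is therefore the listed value, and a gene without RNA and an estimate that failed cannot be told apart by it.

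Genes of catecholamine and peptide transmission gave some of the largest differences of the comparison, in both directions. Kelly had tyrosine hydroxylase, the vesicular monoamine transporter, somatostatin and chromogranin A at high levels, whereas SH-SY5Y had neuromedin U, VGF and neuropeptide Y. The promoters of 4 of these genes are shown first because they hold the same 8-base motif, the cyclic AMP response element TGACGTCA, although the genes moved in opposite directions. Each sequence is the RefSeq promoter on GRCh38.p14, from 250 bases before to 50 bases after the start of transcription, with the motif in capitals. SST and SLC18A2 were at or near 0 in SH-SY5Y; CHGA and VGF were chosen after their values were seen. SST lies on the minus strand at chr3:187670345-187670644, CHGA on the plus strand at chr14:92922900-92923199, SLC18A2 on the plus strand at chr10:117240864-117241163 and VGF on the minus strand at chr7:101165520-101165819.
SST: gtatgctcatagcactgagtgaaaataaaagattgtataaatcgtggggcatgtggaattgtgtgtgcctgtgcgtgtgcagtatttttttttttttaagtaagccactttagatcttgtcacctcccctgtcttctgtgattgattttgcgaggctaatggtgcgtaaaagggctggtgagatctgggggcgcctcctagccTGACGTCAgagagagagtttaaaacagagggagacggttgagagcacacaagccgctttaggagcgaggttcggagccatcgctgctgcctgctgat
CHGA: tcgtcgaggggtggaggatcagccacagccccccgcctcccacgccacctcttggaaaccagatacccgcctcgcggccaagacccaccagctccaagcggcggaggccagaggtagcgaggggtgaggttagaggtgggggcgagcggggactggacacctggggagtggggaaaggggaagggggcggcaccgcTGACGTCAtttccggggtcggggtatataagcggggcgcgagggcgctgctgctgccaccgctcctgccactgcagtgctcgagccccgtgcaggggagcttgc
SLC18A2: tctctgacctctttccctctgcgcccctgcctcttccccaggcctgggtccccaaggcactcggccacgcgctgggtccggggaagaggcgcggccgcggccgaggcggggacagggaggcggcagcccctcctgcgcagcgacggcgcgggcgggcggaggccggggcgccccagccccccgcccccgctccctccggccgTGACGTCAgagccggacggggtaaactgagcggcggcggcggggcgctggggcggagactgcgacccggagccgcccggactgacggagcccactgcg
VGF: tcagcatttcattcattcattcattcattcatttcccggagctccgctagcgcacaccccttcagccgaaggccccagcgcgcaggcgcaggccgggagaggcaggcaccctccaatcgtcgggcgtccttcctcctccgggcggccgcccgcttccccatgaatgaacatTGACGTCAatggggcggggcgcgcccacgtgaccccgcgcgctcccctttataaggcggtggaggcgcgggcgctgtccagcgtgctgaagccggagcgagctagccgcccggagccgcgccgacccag
The motif begins 47 bases before the start in SST, 54 in CHGA, 48 in SLC18A2 and 79 in VGF, and it reads the same on both strands. In VGF an E-box, CACGTG, which MYC family proteins can bind, also stands in the window, left in lower case, and it does not overlap the capitals. TGACGTCA was found in 649 of 35116 RefSeq promoters of this length (1.85%) and CACGTG in 2548 (7.26%). Among the granin and neuropeptide genes, 24 of 31 matched the table with 33 promoters, and 5 of those (15.2%) held TGACGTCA. These were the promoters of CARTPT, CHGA, PCSK1, SST and VGF. In the catecholamine list, 10 of 18 genes matched with 14 promoters, of which 1 (7.14%), that of SLC18A2, held it. A match in the letters is a description and not a bound site.

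Somatostatin (SST, chromosome 3, 187668906 to 187670399), an inhibitory peptide hormone, was at 151, 97.6 and 95.3 scaled TPM in the 3 Kelly libraries and was listed at 0 in all 3 SH-SY5Y libraries (limma, adjusted p = 2.14e-08). SLC18A2, the vesicular monoamine transporter VMAT2, was at 122, 85.0 and 73.5 in Kelly against 0, 0.226 and 0.133 in SH-SY5Y, a log2 fold change of 6.37 ± 0.22 (adjusted p = 3.68e-08). Tyrosine hydroxylase (TH), the rate-limiting enzyme of the pathway, was at 574, 439.6 and 428 against 0, 0.227 and 0.346. None of these 3 genes had overlapping groups, as was true of most genes tested, but here the lowest Kelly library lay far above every SH-SY5Y library. They also set Kelly apart from BE(2)C, with log2 differences between these lines of 4.10 ± 0.20 for SST, 3.66 ± 0.22 for SLC18A2 and 3.55 ± 0.16 for TH (limma, adjusted p of 4.97e-07, 1.37e-06 and 3.16e-07).

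The enzymes beside TH moved less. DDC, dopa decarboxylase, was at 23.0, 14.3 and 12.9 in Kelly against 4.61, 4.52 and 3.79 in SH-SY5Y, a change of 1.70 ± 0.22. DBH, dopamine beta-hydroxylase, was abundant in both lines, at 2053, 1488 and 1499.5 in Kelly against 991, 983 and 947 in SH-SY5Y. Its change of 0.77 ± 0.16 (adjusted p = 0.00269) was not called on the deposited values, where it was 0.05 (adjusted p = 0.692). GCH1, which makes the cofactor of TH, went the other way, at 3.80, 3.59 and 0.248 against 13.3, 10.6 and 7.94 (-1.92 ± 0.47, adjusted p = 0.0072). QDPR, which recycles that cofactor, was at 136 ± 11.4 against 35.2 ± 3.40 (SD, n = 3), higher by 1.92 ± 0.09. MAOB, monoamine oxidase B, which breaks catecholamines down, was at 0.161, 0.312 and 0.271 against 37.6, 35.3 and 37.9 (-4.93 ± 0.15, adjusted p = 2.24e-08), so that SH-SY5Y alone of the pair held it above 1. In all, 9 of the 16 tested catecholamine genes passed as higher in Kelly and 4 as lower, with a median of 0.69 where all genes had a median of 0.00; 2 further members were under the filter. As deposited, 6 were higher and 5 lower.

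Granins, the acidic proteins that fill dense-core vesicles, split between the lines. CHGA, chromogranin A, was at 3008, 2426 and 2357 in Kelly against 124, 121 and 124 in SH-SY5Y (4.38 ± 0.12, adjusted p = 1.95e-08). CHGB followed it with a smaller difference, at 419 ± 35.0 against 112 ± 1.56 (1.89 ± 0.09). VGF, a granin-like protein induced by nerve growth factor, was at 26.8, 27.4 and 28.0 in Kelly against 1408, 1451 and 1414 in SH-SY5Y (-5.65 ± 0.12, adjusted p = 2.76e-09). BE(2)C stood between them at 366 ± 66.2, and the difference of Kelly from it was -3.68 ± 0.12 (adjusted p = 4.77e-08). SCG2, secretogranin II, was lower in Kelly by 1.18 ± 0.06, which lies between the bounds of the spike-in shifts. PCSK1N, an inhibitor of the prohormone convertase PC1, was at 34.5 ± 8.36 in Kelly and 271 ± 22.1 in SH-SY5Y (-2.96 ± 0.16).

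The peptides themselves also differed by line. Neuromedin U (NMU, chromosome 4, 55595229 to 55636698), a gut and brain peptide, was listed at 0 in all 3 Kelly libraries and was at 76.1, 73.5 and 84.8 in SH-SY5Y (limma, adjusted p = 5.42e-08). CALCB, a calcitonin gene-related peptide, was likewise listed at 0 in Kelly and was at 11.5, 9.84 and 12.2 in SH-SY5Y. CARTPT, a peptide first known as induced by cocaine and amphetamine, was at 38.5, 7.60 and 15.7 in Kelly and was listed at 0 in SH-SY5Y; its Kelly libraries spread widely, yet the lowest lay above all 3 of SH-SY5Y. Neuropeptide Y (NPY), co-released with noradrenaline by sympathetic neurons, was at 24.2, 16.9 and 26.2 against 171, 161 and 178 (-2.89 ± 0.38). VIP, the vasoactive intestinal peptide of cholinergic sympathetic neurons, was at 4.19, 1.85 and 2.93 against 34.4, 28.1 and 32.9 (-3.08 ± 0.25). Galanin (GAL), found in both lines at high levels, was higher in Kelly by 1.09 ± 0.09. Of 22 tested granin, peptide and processing genes, 12 passed as higher and 8 as lower in Kelly, 4 and 7 of them by at least 4-fold, while 9 of the 31 were under the filter. As deposited, 4 were higher and 10 lower.

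**Figure D2:**
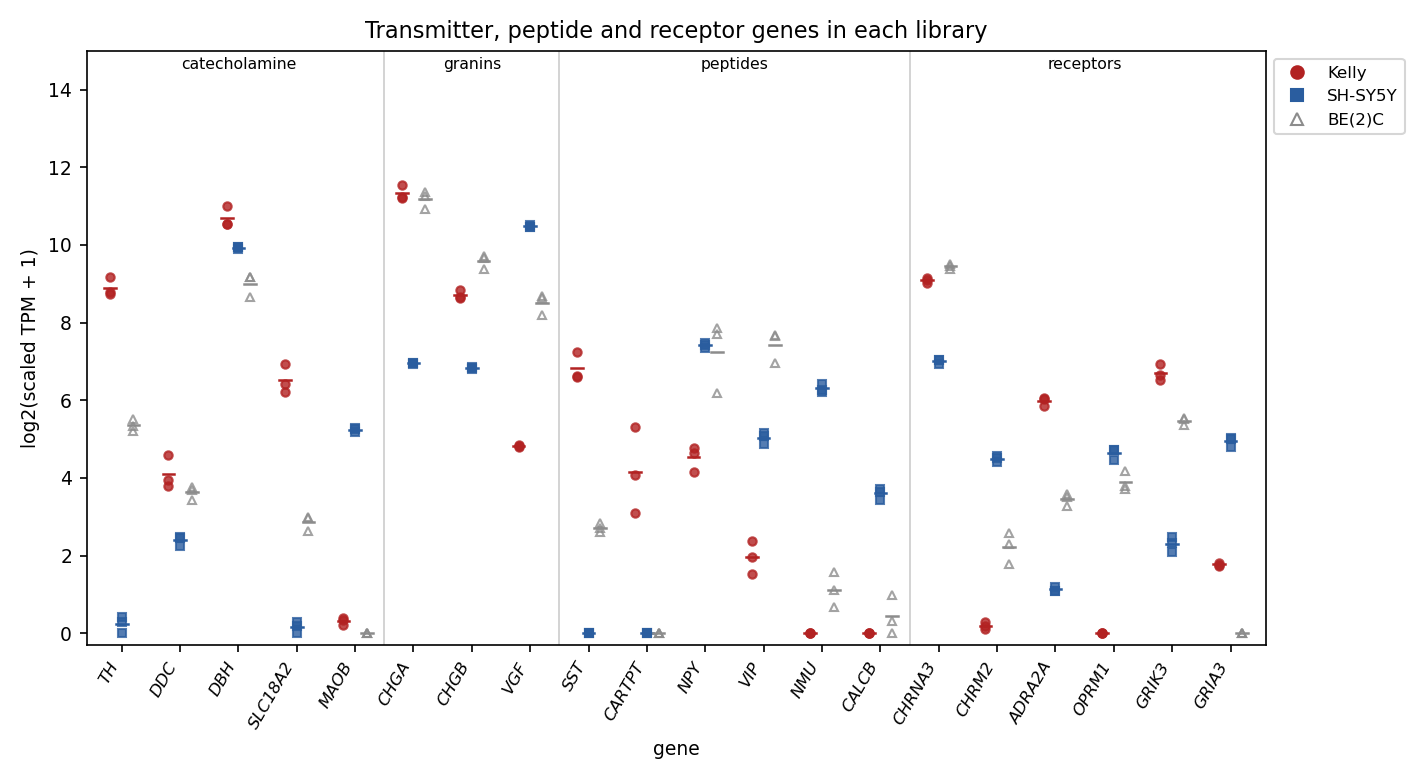
Levels of 20 transmitter, peptide and receptor genes as log2(scaled TPM + 1) in each library of Kelly (red circles), SH-SY5Y (blue squares) and BE(2)C (open gray triangles); short bars are the means of 3 libraries on that scale. TH, SLC18A2 and SST stand high in Kelly and at or near 0 in SH-SY5Y, and MAOB, NMU and CALCB show the opposite.

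Receptors for these transmitters also differed. ADRA2A, the alpha-2A adrenergic receptor that restrains noradrenaline release, was at 57.2, 65.4 and 64.9 in Kelly against 1.13, 1.13 and 1.30 in SH-SY5Y (4.86 ± 0.15, adjusted p = 2.24e-08). OPRM1, the mu opioid receptor, was listed at 0 in every Kelly library and was at 21.0, 25.5 and 25.4 in SH-SY5Y (adjusted p = 6.81e-08). HTR3A, a serotonin-gated ion channel, was at 14.9, 11.1 and 11.8 in Kelly and was listed at 0 in SH-SY5Y. Each of the 3 receptors was therefore near the bottom of the scale in 1 of the lines. Among acetylcholine receptors, CHRNA3, the ganglionic nicotinic subunit, was at 544 ± 21.2 against 128 ± 5.24 (2.08 ± 0.06), and CHRM2, the M2 muscarinic receptor, was at 0.140, 0.225 and 0.0783 against 21.7, 22.6 and 20.4 (-4.30 ± 0.22). BCHE, butyrylcholinesterase, was at 20.3, 21.5 and 21.6 in Kelly against 0.0352, 0 and 0 in SH-SY5Y. Glutamate receptors passed more often as higher than as lower, 8 and 2 of 12 tested, and 2 and 1 of 7 as deposited. GRIK3, a kainate receptor subunit, was at 122, 90.5 and 99.3 against 4.56, 3.24 and 3.99 (4.41 ± 0.14), and GRIA4, an AMPA receptor subunit, was higher by 2.13 ± 0.16. GRIA3, another AMPA subunit, was lower, at 2.42 ± 0.0857 against 29.8 ± 2.60 (-3.17 ± 0.15). Only 8 of the 19 tested GABA and glutamate receptors reached the filter on the deposited values, with 2 higher and 2 lower. Of 46 tested G protein-coupled receptors and regulators, 22 passed as higher and 11 as lower, and on the deposited values 7 and 11.

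Potassium channels, which set the resting potential and end the action potential, were called in 37 of 44 tested genes, 23 higher and 14 lower in Kelly. By at least 4-fold, 10 were higher and 3 lower. KCNJ12, an inward rectifier, was at 49.2, 44.7 and 43.0 in Kelly against 0.781, 0.745 and 0.380 in SH-SY5Y (4.84 ± 0.16, adjusted p = 3.43e-08). The modifier subunit KCNG1 was at 67.5 ± 15.9 against 3.05 ± 1.97 (4.17 ± 0.41). KCNQ1, a delayed rectifier encoded on 11p, was at 0, 0.107 and 0.198 in Kelly against 18.7, 18.8 and 16.6 in SH-SY5Y. KCNK1, a leak channel, was lower by 3.36 ± 0.18. The median of the list was 0.66 above that of all genes. On the deposited values, where the filter left 24 of the 44, it was 0.07 above. Of those 24, 9 were higher and 13 lower. Sodium and calcium channel genes leaned the other way, with 13 lower and 7 higher of 26, and 12 and 1 of 16 as deposited. Within them CACNG4 (-1.80 ± 0.10), CACNG7 (-1.50 ± 0.22) and CACNG8 (-1.88 ± 0.23), named as calcium channel gamma subunits, were lower in Kelly. CACNG2, a gene of the same family, was listed at 0 in all 3 Kelly libraries. It was at 11.3, 18.1 and 13.2 in SH-SY5Y. SCN1A, a neuronal sodium channel, was higher in Kelly, at 17.4, 25.3 and 18.2 against 0.437, 0 and 0.160. It also differed from BE(2)C, by 3.88 ± 0.20 (limma, adjusted p = 7.52e-07).

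The sympathetic transcription factors HAND2 and GATA3 were expressed in both lines and differed little. HAND2 was at 1115, 1033 and 1093 in Kelly against 1243, 1248 and 1259.7 in SH-SY5Y (-0.21 ± 0.05, limma, adjusted p = 0.00672), and GATA3 at 430.0, 349 and 345 against 564, 580.0 and 551 (-0.60 ± 0.09). The groups did not overlap for either gene, as was true of most genes tested, and each change lay between the bounds of the spike-in shifts. For comparison, MYCN (chromosome 2, 15940564 to 15947007), the amplified gene, was at 5977 ± 77.8 in Kelly and 27.3 ± 1.01 in SH-SY5Y. Other members of the same list moved far more. INSM1, a zinc finger factor of neuroendocrine progenitors, was at 26.3, 21.0 and 20.5 in Kelly and was listed at 0 in SH-SY5Y. EYA1, a transcriptional coactivator and phosphatase, was higher by 3.66 ± 0.22 and LMO4, a LIM-only adaptor, by 2.90 ± 0.21. SIX3, a homeobox factor of the forebrain and eye, was at 17.4, 16.9 and 13.3 against 317, 326 and 311 (-4.25 ± 0.10, adjusted p = 7.35e-09), and ZNF536, a repressor of neuronal differentiation, was lower by 2.93 ± 0.13. Of 29 tested members, 14 passed as higher and 13 as lower, with 8 and 13 by library totals, 10 and 13 after quantile normalization, and 7 and 18 of 28 as deposited.

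HOX genes, which give cells their position along the body axis, passed the filter from the C and D clusters. None of the 11 genes of cluster A and none of the 10 of cluster B passed the filter. Of the 7 tested genes of cluster C, 4 were higher in Kelly, and of the 7 of cluster D, 3 were; none was lower. HOXC8 was at 28.3, 23.4 and 30.9 in Kelly against 0.396, 0.107 and 0 in SH-SY5Y (4.62 ± 0.17, adjusted p = 6.81e-08). Its neighbors HOXC9 (1.93 ± 0.16) and HOXC4 (1.23 ± 0.10) differed less, from levels of 7.48 ± 1.07 and 34.3 ± 1.57 in SH-SY5Y. HOXD13, the last gene of its cluster, was at 39.9, 50.6 and 51.6 against 0.111, 0.0902 and 0 (5.50 ± 0.17, adjusted p = 2.61e-08). In BE(2)C HOXD13 was at 3.77 ± 0.446, and Kelly lay above it by 3.34 ± 0.17 (adjusted p = 6.45e-07), whereas HOXC8 was lower in Kelly than in BE(2)C by 0.95 ± 0.17. HOXD8, in the middle of the D cluster, was at 25.5 in Kelly and 27.4 in SH-SY5Y and did not pass. As deposited, 4 of 10 tested HOX genes were higher and 2 lower.

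Other developmental factors leaned toward Kelly, with 23 of 45 tested higher, 9 lower and 39 of 84 under the filter. LHX9, a LIM homeobox factor, was at 39.2, 43.1 and 41.2 in Kelly and was listed at 0 in SH-SY5Y. NR2F2, the orphan nuclear receptor COUP-TFII, was at 43.8, 60.5 and 71.3 against 0.0948, 0.153 and 0.0711 (5.72 ± 0.25). POU4F1, the sensory neuron factor BRN3A, was at 27.3, 27.6 and 29.6 against 0.164, 0.0889 and 0.165 (4.68 ± 0.19). These 3 factors were at or near 0 in SH-SY5Y. EBF3, a helix-loop-helix factor of neurons, was higher by 4.63 ± 0.24. Of these, POU4F1 (3.77 ± 0.19) was also higher in Kelly than in BE(2)C, while LHX9 (-0.38 ± 0.20, adjusted p = 0.131) and NR2F2 (0.00 ± 0.25, adjusted p = 1) did not pass the test against it. SALL4, a factor of pluripotent cells, was at 52.7 ± 5.31 in Kelly, 4.42 ± 0.540 in SH-SY5Y and 4.75 ± 0.979 in BE(2)C. RORB, a nuclear receptor of retina and cortex, was the reverse, at 2.04, 2.43 and 2.45 against 94.2, 102 and 109 (-4.96 ± 0.15). On the deposited values 13 of 32 were higher and 16 lower. Among SOX factors, SOX9, a neural crest and glial factor, was at 21.1, 21.6 and 25.4 against 0.507, 0.103 and 0.286 (4.20 ± 0.21). The neuronal factors SOX4 and SOX11 were lower in Kelly, SOX4 at 64.1 ± 7.38 against 374 ± 4.32 (-2.53 ± 0.08) and SOX11 by 1.47 ± 0.09. Of 11 tested SOX genes, 5 were higher and 5 lower, and 2 and 4 of 7 as deposited.

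Semaphorins and their receptors steer axons, and their genes changed in opposite directions within the family. The coreceptors NRP1 and NRP2, which bind class 3 semaphorins and vascular growth factors, were listed below 1 in every SH-SY5Y library. NRP1 was at 41.6, 54.4 and 60.5 in Kelly against 0.0851, 0.178 and 0.0986 in SH-SY5Y (5.55 ± 0.19, adjusted p = 3.55e-08), and NRP2 at 27.1, 36.4 and 27.9 against 0, 0.0607 and 0. PLXND1, a plexin that binds SEMA3E, was higher by 2.66 ± 0.11. Another plexin, PLXNA4, which signals for SEMA3A together with NRP1, was lower, at 4.62, 2.96 and 3.36 against 94.7, 99.7 and 96.6 (-4.41 ± 0.21). Of the ligands, SEMA3F was at 41.8, 38.9 and 40.4 against 2.69, 3.31 and 2.62 (3.42 ± 0.19), and SEMA3C was at 1.04, 1.03 and 1.70 against 53.9, 62.0 and 61.3 (-4.74 ± 0.16). The lines therefore differed in which ligand, which coreceptor and which plexin stood high. NEO1, a receptor for netrins and repulsive guidance molecules, was at 2.82 ± 0.169 against 54.4 ± 1.66 (-3.86 ± 0.16). Of 41 tested genes of these families, 16 were higher and 15 lower, with 8 of at least 4-fold each way, but as deposited 10 and 21 of 32. NRP1 (-0.15 ± 0.19) and PLXND1 (-0.03 ± 0.11) did not pass the test between Kelly and BE(2)C. Ephrin receptors also went both ways. EPHB3 was at 112, 98.3 and 101 against 12.7, 12.8 and 11.1 (2.99 ± 0.22). EPHB4 was listed at 0 in Kelly and was at 18.2, 17.0 and 16.5 in SH-SY5Y. The ligand EFNA2 was at 1.31, 0.281 and 0.244 against 45.2, 52.4 and 48.4.

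Cadherins, which bind cells of like kind to one another, were mostly higher in Kelly. A list of immunoglobulin-type and other neural adhesion molecules was mostly lower. Of 25 tested cadherins and non-clustered protocadherins, 17 passed as higher and 6 as lower, with 6 of at least 4-fold, all higher, and a median 0.88 above that of all genes. CLSTN2, a calsyntenin of the postsynaptic membrane, was at 50.3, 53.9 and 55.4 against 1.26, 1.47 and 1.16 (4.56 ± 0.16), and PCDH19 was at 10.6 ± 0.961 in Kelly and was listed at 0 in SH-SY5Y. The list median was 0.62 above that of all genes on the deposited values, where 6 were higher and 8 lower of 18 tested. Of 39 tested immunoglobulin-type and other neural adhesion genes, 22 passed as lower and 11 as higher, with a median 0.74 below that of all genes. IGLON5 was at 0, 0.205 and 0.267 against 97.5, 96.4 and 93.4, ISLR2 at 19.2 ± 6.33 against 269.9 ± 6.60 (-3.79 ± 0.20), and LSAMP at 3.69 ± 0.815 against 38.2 ± 0.773 (-3.08 ± 0.16). On the deposited values 24 were lower and 6 higher of 32, but most of all genes were lower there too, so the kept direction adds little. LRRTM1, a leucine-rich organizer of excitatory synapses, had the largest change of the 11 higher members, at 107, 108 and 120.2 in Kelly against 0, 0 and 0.108 in SH-SY5Y (6.77 ± 0.11, adjusted p = 8.40e-10). NLGN1, a postsynaptic neuroligin, was also higher, by 3.23 ± 0.30.

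Matrix and integrin genes changed in both directions. NID1, which links laminin to collagen IV in basement membranes, was listed at 0 in all Kelly libraries and was at 36.3, 39.5 and 38.8 in SH-SY5Y. TNC, the embryonic matrix protein tenascin C, was at 0, 0 and 0.0688 against 15.1 ± 1.96, and AGRN, the synapse organizer agrin, was at 6.41 ± 1.18 against 68.1 ± 6.28 (-3.23 ± 0.14). In the other direction stood the small leucine-rich proteoglycan FMOD and LOXL1, an enzyme that cross-links elastin. FMOD was at 58.7, 73.4 and 74.8 and LOXL1 at 91.1, 77.7 and 78.4 in Kelly, and both were listed at 0 in SH-SY5Y. BGN, a related proteoglycan, was at 11.9 ± 3.74 against 0, 0.0268 and 0. ITGB5, the integrin subunit that pairs with alpha V, was at 54.9, 101 and 82.3 against 4.16, 4.41 and 4.03 (3.91 ± 0.20), and ITGA11, a collagen receptor subunit, was higher by 4.13 ± 0.22. ITGB1, the common partner, was lower by 1.06 ± 0.06. Over 66 matrix glycoproteins, proteoglycans and proteases, 21 were higher and 25 lower (11 and 28 of 47 as deposited). Over 20 tested collagens, 10 were higher and 3 lower, but 2 and 5 of 7 on the deposited values. The 8 fibroblast markers summed to 69.8 to 75.5 in Kelly and 102 to 107 in SH-SY5Y, and 3 and 7 of them reached 1 in every library of the line. Their part in these results was not tested.

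**Figure D3:**
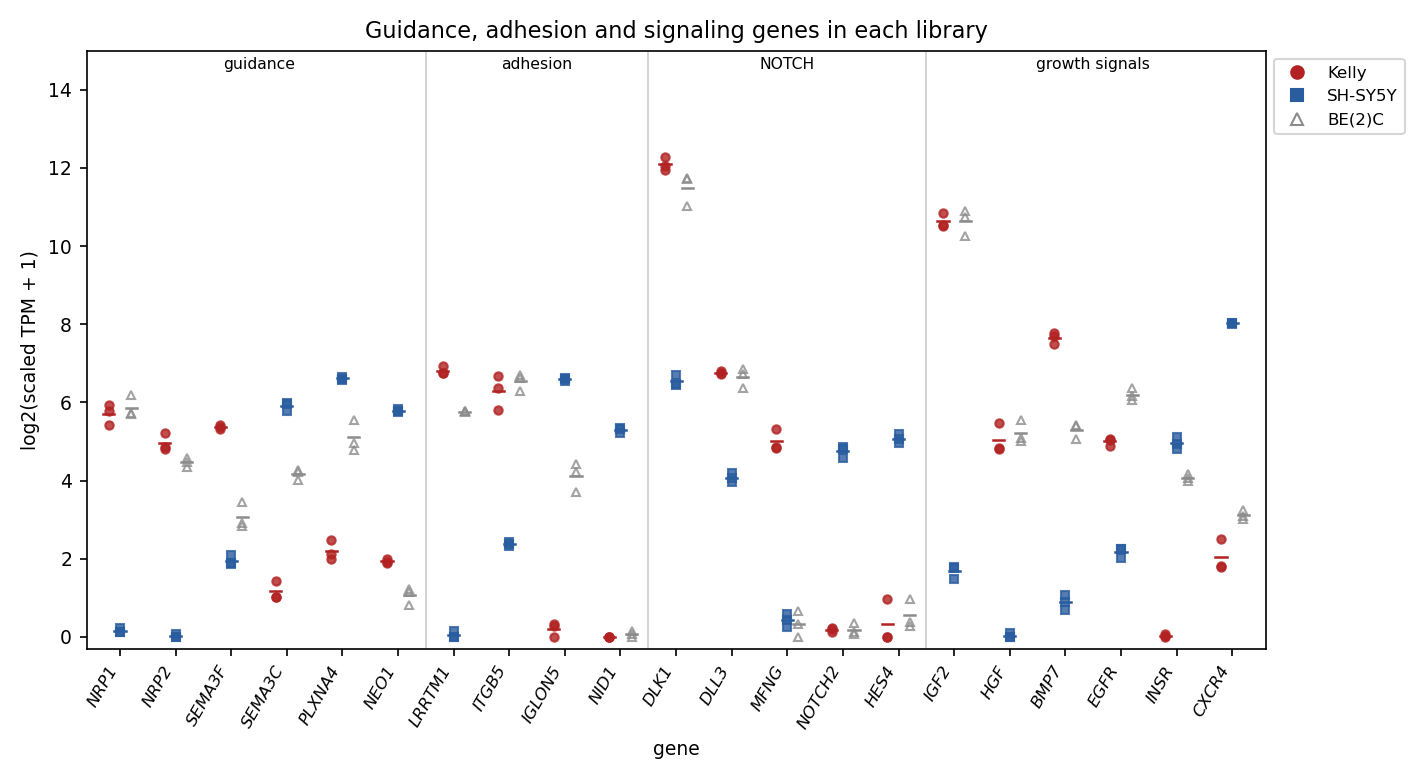
Levels of 21 guidance, adhesion, NOTCH and growth signal genes as log2(scaled TPM + 1) in each library of Kelly (red circles), SH-SY5Y (blue squares) and BE(2)C (open gray triangles), with short bars at the means of 3 libraries. NRP1 and NRP2 are high in Kelly while PLXNA4 and NEO1 are high in SH-SY5Y, as are DLK1 in Kelly and NOTCH2 in SH-SY5Y.

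In the NOTCH pathway, in which a ligand on one cell triggers the release of a receptor fragment in its neighbor, both tested receptors were lower in Kelly and 4 of 7 tested ligands were higher by at least 4-fold. NOTCH2 was at 0.145, 0.0937 and 0.163 in Kelly against 22.9, 28.0 and 26.9 in SH-SY5Y (-4.57 ± 0.16, adjusted p = 4.97e-08). The ligand DLL3 was at 107, 105 and 110.4 against 15.8, 14.6 and 17.4 (2.68 ± 0.12), and the atypical ligand DLK1, an imprinted gene of 14q32, was at 4969, 3968 and 4278 against 104, 86.7 and 88.3. DNER, a neuronal ligand, went the other way, at 0.254, 0 and 0 against 21.3, 23.1 and 24.9. The target genes did not move as a block. HES4 was at 0.945, 0 and 0 in Kelly against 32.7, 35.3 and 30.2 in SH-SY5Y, while HEYL was at 18.9, 18.1 and 16.8 against 0, 0.276 and 0.0512. MFNG, the glycosyltransferase manic fringe, which tunes the response of the receptor to its ligands, was at 38.9, 27.4 and 28.2 against 0.200, 0.489 and 0.359 (4.58 ± 0.22). MFNG and HEYL were also higher in Kelly than in BE(2)C, by 4.68 ± 0.22 and 3.77 ± 0.16 (limma, adjusted p of 4.53e-07 and 2.33e-07), whereas NOTCH2 was at 0.139 ± 0.121 in BE(2)C. Of the 17 tested targets and regulators, 8 were higher and 5 lower, and 3 and 7 of 13 as deposited.

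Growth factor and receptor genes gave large changes in both directions. IGF2, the fetal insulin-like growth factor, was at 1838, 1473 and 1483 in Kelly against 2.41, 2.46 and 1.79 in SH-SY5Y (8.95 ± 0.16, adjusted p = 1.48e-09). INSR, the insulin receptor, which also binds IGF2, was at 0.0159, 0 and 0.0491 against 29.5, 33.7 and 27.0 (-4.92 ± 0.15, adjusted p = 2.51e-08). GRB10, an adaptor that restrains insulin receptor signaling, was at 39.1, 39.0 and 40.2 against 0, 0 and 0.0381. IGF2 was at 1614 ± 345 in BE(2)C, and INSR (-4.04 ± 0.15) and GRB10 (5.28 ± 0.14) set Kelly apart from BE(2)C too (limma, adjusted p of 1.25e-07 and 2.57e-08). HGF, the ligand of MET, was at 43.3, 27.2 and 27.7 against 0, 0.0675 and 0. EGFR was at 31.1 ± 2.19 against 3.52 ± 0.397 (2.83 ± 0.13) and PDGFRA at 1.32 ± 0.410 against 20.8 ± 1.11 (-3.25 ± 0.19). Over 42 tested receptor kinases and their ligands, 16 were higher and 15 lower, which turned to 4 and 16 of 26 as deposited. The GDNF coreceptors GFRA1, at 23.9, 28.3 and 23.8 against 0.0272, 0.132 and 0.0205, and GFRA2, higher by 3.84 ± 0.26, stood above SH-SY5Y. The neurotrophin receptor NGFR (-2.74 ± 0.26) and the GDNF family ligand NRTN (-3.35 ± 0.29) stood below it. In the feedback arm of ERK signaling, 8 of 18 tested genes were lower and 3 higher, and 14 and 1 of 17 as deposited. DUSP6, an ERK phosphatase, was at 8.05, 11.1 and 13.9 against 105, 89.9 and 92.5 (-3.03 ± 0.23) and SPRED3 was lower by 2.18 ± 0.18. ETV4, an ETS factor induced by ERK, was at 0.925 ± 0.313 against 28.1 ± 1.82 (-3.93 ± 0.23), while the related phosphatase DUSP9 was higher by 3.31 ± 0.21.

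BMP7, a bone morphogenetic protein, was at 207, 219 and 181 in Kelly against 0.621, 1.11 and 0.841 in SH-SY5Y (6.78 ± 0.15, adjusted p = 4.15e-09). TGFB1 was also higher, at 124, 98.3 and 110.3 against 14.7, 18.5 and 21.5 (2.55 ± 0.15). The receptors ENG, endoglin, at 1.65 ± 0.781 against 43.3 ± 1.43 (-4.10 ± 0.25), and ACVR1, a type I receptor of BMPs (-2.57 ± 0.22), were lower. Tested receptors of the family were split, 5 higher and 6 lower of 13 (1 and 8 of 10 as deposited). Over 51 tested genes of TGF-beta and BMP signaling, 14 were higher and 22 lower, and 4 and 27 of 35 as deposited. In WNT signaling the split was 14 higher and 13 lower of 36, or 2 and 17 of 21 on the deposited values, and the receptors FZD7 (-2.99 ± 0.13) and FZD1 (-2.97 ± 0.21) were lower. FZD7 was at 29.4 ± 3.07 in BE(2)C, and Kelly lay below it by 3.01 ± 0.13 on the log2 scale. CXCR4, a chemokine receptor tied to metastasis, was at 4.68, 2.54 and 2.48 in Kelly against 262, 260.2 and 257 in SH-SY5Y (-5.98 ± 0.19, adjusted p = 2.68e-08). Its ligand CXCL12 was at 9.34, 16.8 and 12.1 against 0, 0.430 and 0. In retinoic acid handling, the binding proteins CRABP1 (1.85 ± 0.08) and FABP5 (2.72 ± 0.10) were higher and ALDH1A3, which makes retinoic acid, was lower by 2.73 ± 0.29.

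The cytoskeleton of neurites differed by class. The intermediate filament genes PRPH, at 426, 407 and 401 against 1.23, 1.67 and 1.44 (7.40 ± 0.16), and NEFH, at 561 ± 37.6 against 55.0 ± 0.554 (3.33 ± 0.10), were higher in Kelly. Microtubule genes of neurites leaned lower, 13 of 26 against 6 higher, and 20 of 25 against 3 as deposited. STMN2, a growth cone protein that frees tubulin, was at 440.1, 527 and 526 in Kelly against 1987, 1815 and 1891 in SH-SY5Y (-1.93 ± 0.09). DCX, doublecortin, was lower by 1.93 ± 0.15 and CRMP1 by 1.55 ± 0.06, whereas DPYSL3 was higher by 1.77 ± 0.12. Tubulin paralogs share reads, so TUBB4A, at 0.000688, 2.33 and 0.522 against 62.2, 53.7 and 60.3, is uncertain. Synaptic vesicle genes gave 10 higher and 9 lower of 32, and 3 and 20 of 28 as deposited. SV2C, a vesicle glycoprotein, was at 5.96 ± 0.329 against 78.2 ± 1.11 (-3.51 ± 0.14), and CADPS, which primes dense-core vesicles, was higher by 2.24 ± 0.15.

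Nuclear genes of mitochondria passed more often as higher than as lower on scaled values, mostly by small amounts, and this direction turned on the deposited values. Of 58 tested nuclear genes of the respiratory chain, 35 were higher in Kelly and 3 lower, with a median of 0.52 and 1 change of at least 4-fold. The mitochondrial ribosomal proteins gave 44 higher and 7 lower of 76, with a median of 0.50, and of the 13 genes encoded in the mitochondrion 2 were higher and none lower (none and 8 as deposited). As deposited, the respiratory chain and mitochondrial ribosome lists turned to 4 higher and 15 lower of 51 and to 6 and 23 of 75, although their medians still lay 0.44 and 0.37 above that of all genes. ATP5G1, a subunit of ATP synthase, was at 306, 277 and 299 in Kelly against 80.5, 112 and 71.3 in SH-SY5Y (1.75 ± 0.21). Ribosome assembly genes gave 24 higher and 7 lower of 42, and 7 and 17 on the deposited values. BOP1, a factor of large subunit assembly, was at 364, 392 and 397 against 121, 112 and 118 (1.71 ± 0.06), and POLR1B, a subunit of RNA polymerase I, was lower by 1.18 ± 0.15. Cytosolic ribosomal proteins gave 24 higher and 22 lower of 80, but 14 and 27 by library totals, 17 and 32 after quantile normalization, and 5 and 56 of 79 as deposited.

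The tricarboxylic acid cycle and glutamine list gave 24 higher and 2 lower of 41, with a median of 0.60, and 9 and 14 of 37 on the deposited values. Its largest changes were of amino acid transporters. SLC38A5, a glutamine and serine carrier, was at 34.9, 26.7 and 29.2 in Kelly against 0.238, 0.492 and 0 in SH-SY5Y (4.66 ± 0.25), and SLC7A11, the cystine carrier, was at 9.35, 12.2 and 11.5 against 0.517, 0.440 and 0.564 (2.99 ± 0.21). SLC7A5 and SLC3A2, the 2 chains of a leucine and glutamine exchanger, were higher by 2.08 ± 0.07 and 1.89 ± 0.19. In the urea cycle, ASS1, argininosuccinate synthase, was at 248, 223 and 244 against 0, 0.0239 and 0, the next enzyme ASL was higher by 1.74 ± 0.32, and the arginine carrier SLC7A2 by 3.41 ± 0.13. Glycolytic genes passed in 15 of 30, 12 higher and 3 lower, and turned to 3 and 16 of 27 on the deposited values. PFKFB3, which makes the activator of phosphofructokinase, was at 0.981, 1.73 and 1.84 against 30.6, 28.6 and 30.4 (-3.64 ± 0.18), LDHA was lower by 1.04 ± 0.12 and the glucose carrier SLC2A1 higher by 2.17 ± 0.54.

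Cholesterol synthesis and uptake had more genes higher than lower under each of the scalings tried. It gave 17 higher and 2 lower of 28, with a median of 0.86, and on the deposited values 8 higher and 5 lower of 24. SREBF2, the transcription factor that switches the pathway on, was at 324, 283 and 284 in Kelly against 80.3, 80.4 and 71.5 in SH-SY5Y (1.93 ± 0.09). It lies on chromosome 22 between 40 and 50 Mb, where 61 of 78 tested genes were higher and 5 lower. SREBF2 thus shares the direction of its neighborhood. The SREBF2 target HMGCS1 was higher by 1.49 ± 0.13, MVD by 1.88 ± 0.24 and STARD4, a cholesterol carrier, by 2.17 ± 0.17. INSIG2, which holds SREBF2 protein in the endoplasmic reticulum, was at 6.07, 3.43 and 1.94 against 22.5, 16.9 and 14.6 (-2.05 ± 0.31). Kelly and BE(2)C did not differ past the test for SREBF2 (0.22 ± 0.09, adjusted p = 0.0572) and HMGCS1 (-0.11 ± 0.13, adjusted p = 0.511). Among oxidant defense genes, HMOX1, heme oxygenase 1, was at 25.7, 24.2 and 27.7 against 0.410, 0.998 and 0.720 (3.99 ± 0.21). The metallothionein MT1X was at 0, 0 and 1.55 against 15.5, 14.4 and 18.1. GSTM1, at 105, 101 and 123 against 3.38, 0.211 and 4.20, has close paralogs and its split of reads is uncertain.

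**Figure D4:**
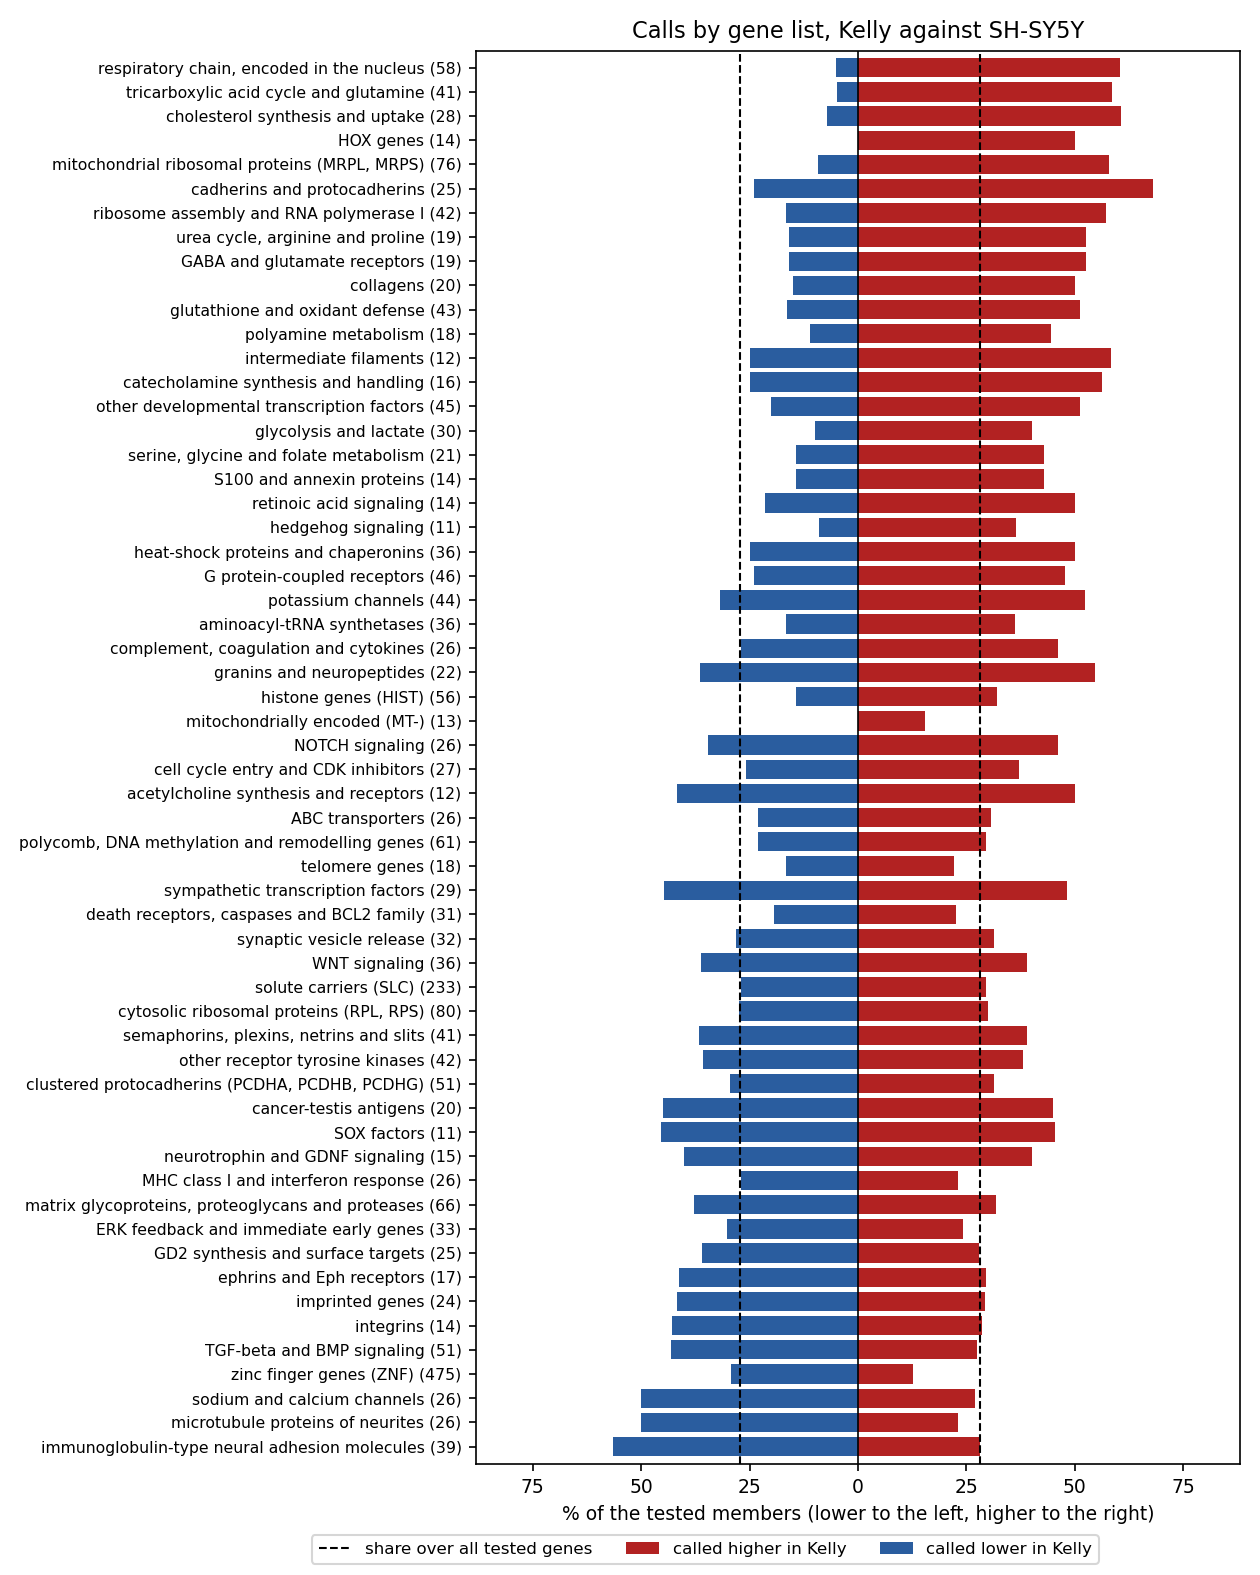
Share of the tested members of each gene list (number in brackets) called higher in Kelly (red, to the right) and lower in Kelly (blue, to the left), with dashed lines at the shares of all tested genes, 28.1% and 27.2%. Respiratory chain, cholesterol and cadherin genes extend furthest beyond the dashed line on the right. The list labeled immunoglobulin-type, which also holds other neural adhesion genes, does so on the left.

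Imprinted and germline genes included many large differences. Of 24 tested imprinted genes, 7 were higher and 10 lower in Kelly, 5 and 4 of them by at least 4-fold, and as deposited 5 and 13 of 22. Besides IGF2, DLK1 and GRB10, MEST was at 40.8, 52.6 and 50.9 against 0.809, 0.984 and 1.02 (4.65 ± 0.19). CDKN1C, the maternally expressed inhibitor of cyclin kinases beside KCNQ1 on 11p15, was at 1.56, 0.541 and 0.263 against 28.3, 23.7 and 25.7 (-3.97 ± 0.26). IGF2 and CDKN1C both lie in the first 10 Mb of chromosome 11 and moved in opposite directions. There 63 of 89 tested genes were lower and 3 higher, so CDKN1C shares the direction of its neighborhood. Of 20 tested cancer-testis antigens, 9 were higher and 9 lower, and 5 and 7 of 13 as deposited. MAGEA1 was at 106, 111 and 118 in Kelly against 0.292, 0.118 and 0.110 in SH-SY5Y (6.58 ± 0.15), and MAGEA10 at 82.6, 78.1 and 80.6 against 1.52, 1.92 and 2.20, whereas XAGE1B was at 3.71, 0.000755 and 1.93 against 49.0, 52.6 and 39.6. MAGE, GAGE and XAGE genes have near-identical copies, so values of single genes are uncertain. Both MAGE genes were also higher in Kelly than in BE(2)C, by 6.81 ± 0.15 and 6.05 ± 0.16 (limma, adjusted p of 8.49e-09 and 2.22e-08).

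On scaled values, chromatin and cell cycle lists were close to the background as wholes and held a few large changes. SMARCA2, the ATPase BRM of the SWI/SNF remodeler, was at 0.185, 0 and 0.0803 in Kelly against 16.6, 21.2 and 15.8 in SH-SY5Y (-4.11 ± 0.17). CHD5, a remodeler on 1p36, was at 0.261, 0.332 and 0.408 against 21.2, 22.3 and 20.1 (-4.06 ± 0.16, adjusted p = 8.09e-08), and HDAC9 was lower by 2.34 ± 0.18. CBX6, a polycomb subunit on chromosome 22, was higher by 2.07 ± 0.07. Both SMARCA2 and CHD5 were below 1 in BE(2)C as well, at 0.222 ± 0.0361 and 0.422 ± 0.146. Of the D-type cyclin module that drives entry into S phase, CCND1 was at 258, 221 and 230.0 against 1054, 1109 and 1087 (-2.19 ± 0.07), and its partner kinase CDK6 was at 233, 239 and 219.7 against 26.1 ± 4.31 (3.11 ± 0.12). CCND1 was also lower in Kelly than in BE(2)C, by 2.02 ± 0.07 on the log2 scale (adjusted p = 5.92e-08), and CDK6 was higher, by 0.85 ± 0.12. Over 61 genes of polycomb, DNA methylation and remodeling, 18 were higher and 14 lower. By library totals these were 14 and 15, and as deposited 4 and 37 of 55. The 27 cell cycle genes gave 10 higher and 7 lower, and as deposited 2 and 13 of 26.

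Calls were unevenly spread over the genome. On chromosome 22, 194 of 314 tested genes were higher in Kelly and 29 lower, with a median of 0.69, and on the deposited values 79 were higher and 57 lower of 237. The highest median of 235 windows of 10 Mb was on this chromosome, between 40 and 50 Mb, at 1.06 with 61 higher and 5 lower of 78. Genes of the whole chromosome with large changes included FAM19A5, a secreted neural protein, at 67.6, 65.8 and 65.1 against 0.189, 0.479 and 0.233, RAC2, a small GTPase of blood cells, higher by 3.87 ± 0.27, and MFNG and HMOX1, described above. On chromosome 12, 272 of 690 were higher and 104 lower, with a median of 0.26. RERG, a small GTPase, was at 99.9, 89.7 and 85.0 against 0.350, 0.403 and 0.187, CPNE8, a copine, at 73.1, 102 and 67.0 against 0.0805, 0.290 and 0.186, and TMEM132C at 27.9, 33.6 and 32.2 and listed at 0 in SH-SY5Y. The direction on chromosome 12 turned on the deposited values, to 66 higher and 255 lower of 544, with a median still 0.22 above that of all genes.

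The lowest window median was on chromosome 7 between 100 and 110 Mb. There 75 of 91 tested genes were lower in Kelly and none higher, with a median of -1.46 and 24 genes lower by at least 4-fold, and on the deposited values 73 of 77 were lower. VGF, the receptor gene EPHB4, the adhesion gene NRCAM (-3.03 ± 0.29) and the surface proteoglycan gene GPC2 (24.3 ± 3.71 against 176 ± 10.3) lie in it, so these genes share the direction of their neighborhood. The first 10 Mb of chromosome 4 gave 60 lower and 3 higher of 74 (median -1.07), with IDUA, a lysosomal enzyme, at 0, 0.256 and 0.298 against 17.2, 10.8 and 18.3. Between 80 and 120 Mb of chromosome 2, 89 of 124 were lower and 1 higher (median -1.04); that 1 was LRRTM1, named here because it ran against its surroundings. ITPRIPL1, at 0, 0 and 0.0540 against 36.3, 37.8 and 40.0, and FBLN7, listed at 0 in all Kelly libraries against 18.4, 25.6 and 22.2 in SH-SY5Y, lie in the same stretch. The first 10 Mb of chromosome 11 gave 63 lower and 3 higher of 89 (median -1.02), yet TH and IGF2, among the genes furthest above SH-SY5Y, lie there. KCNQ1 and CDKN1C, both lower in Kelly, lie there too and share the direction of their neighborhood. DNA copy number was not measured, and its part in these patterns was not tested.

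**Figure D5:**
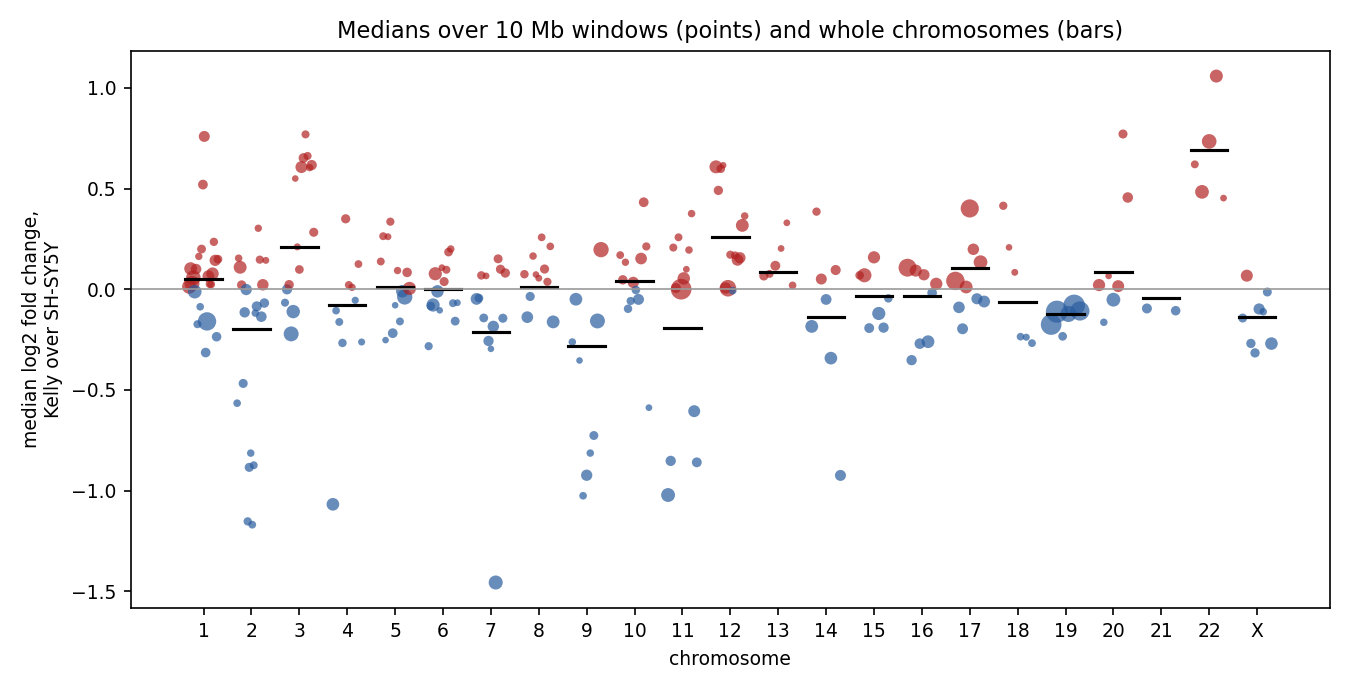
Median log2 fold change of Kelly over SH-SY5Y for 235 windows of 10 Mb (points, ordered along each chromosome, with area proportional to the number of tested genes, red above 0 and blue below) and for each whole chromosome (black bars). The windows of chromosome 22 lie above 0, with the highest at 1.06, and the lowest point, at -1.46, is on chromosome 7.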

How the data were processed

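Polyadenylated RNA of Kelly and SH-SY5Y (3 libraries each) was analysed with 3 libraries of BE(2)C in the same fit. Judged by the numbers, the authors deposited log10 values of TPM + 1. HISAT 0.1.6, Salmon 0.3.2 and GRCh38 are listed in the submitters' processing notes without roles, and the sources used here do not give the step from transcripts to genes. The number of unused value columns is 0. The values were turned back to TPM, and 92 spike-in, 11 marker and 28 date-like entries of 19837 were dropped. The 19706 gene entries were rescaled to a common TPM total and divided by an unweighted trimmed-mean factor, which trimmed 30% of log ratios and 5% of log levels. As the file holds no counts, depth is unknown.

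limma 3.58.1 in R 4.3.3 (trend method, two-sided, Benjamini-Hochberg) was run on log2(scaled TPM + 1) for genes at 1 or more in at least 3 of the 9 libraries, with no replicate block; large changes are called changes of at least 4-fold. The fit was tested on simulated data in which few genes changed, equally in both directions. That setting does not test the scaling where as many genes differ as here. Coordinates are from GENCODE release 29 on GRCh38, which matched 18678 gene symbols and 542 synonyms. Spike-in shifts used the deposited values of 61 spike-ins at 10 TPM or more.

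The comparison, its 51 gene lists and further families by symbol were chosen with earlier results of these data known, so list counts are descriptions and no list was tested. Named genes are up to 6 called members of each list with a log2 change of at least 1 and 10 scaled TPM in the higher line, the 15 highest and 15 lowest changes, the 10 highest genes listed at 0 in the other line, up to 4 genes per chromosome, and MYCN, HAND2, GATA3, CHGA and DBH. Some named genes are not reported here. Other genes named were chosen after their values were seen. Alternatives were other scalings, pseudocounts of 0.1 and 5, other filters, the 6 libraries alone, a replicate block and each library left out.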

Additional observations from a re-analysis of the deposited data

Results flagged for a closer look

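An entry for an ampicillin resistance marker, which belongs to no gene comparison, was not at 0. It had a mean of 155 deposited TPM in Kelly (SD 8.62, range 147 to 164) and 193 in SH-SY5Y (SD 6.92, range 185 to 199), both n = 3, beside 165 ± 14.7 in BE(2)C. Of the 11 reporter and selection marker entries, 8 were at 0 in all 9 libraries, and the largest value among the other entries was 0.189. No control library without added RNA was in the series.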

How the results depend on the processing

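Of 338 named genes, 321 kept their call and direction in every one of the 18 alternatives that tested them, and none changed direction past the test. Most were picked by call and size of change in the main fit, so this count does not speak for smaller changes. Some called list members that were not named reversed past the test as deposited. Among them were PHOX2A, from 0.28 to -0.43, CLSTN1, from 0.29 to -0.40, and ID2, from 0.21 to -0.50. On the values as deposited, 886 genes were higher and 6461 lower, 78 and 286 of them by at least 4-fold. That fit kept the filter and the pseudocount of 1 on smaller values, which also drops low genes and shrinks their changes. The share of higher genes among calls moved from 50.8% to 12.1% there. It was 41.4% with library totals and 41.7% with mitochondrial genes out of the total. As deposited, 13 named genes lost their call, GRIA2, BAX, RXRA and DBH among them. The pseudocount moved the large changes, to 832 higher and 933 lower at 0.1 and to 204 and 211 at 5, since it sets the ratio of genes near 0. Leaving out each library in turn gave 3118 to 3297 higher and 2866 to 3378 lower genes, and 399 to 530 and 449 to 606 by at least 4-fold. The filter still asked for 3 libraries at 1 or more, so genes that reached 1 only in the shortened line were dropped. Large higher calls were 399 to 437 without a Kelly library, and large lower calls 449 to 461 without an SH-SY5Y library. Of the 338 named genes, 319 and 315 were tested in these fits. The counts therefore move with the filter and do not measure replicate stability alone. TEN1, a telomere gene named by the list rule, lost its call in several of these fits and with the pseudocount of 0.1. The labels number the libraries 1 to 3 in each line, and a fit with the replicate block gave 3541 higher and 3440 lower genes; correlations of same-numbered libraries between Kelly and SH-SY5Y were 0.006, 0.001 and 0.026, so the numbers were not taken as pairs. TPM values keep no depth, which limits statements on genes listed at 0.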

Other observations

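Among families grouped by symbol, zinc finger genes (ZNF) had few higher calls in Kelly, 60 of 475 tested (12.6%, where all genes gave 28.1%). Their 139 lower calls (29.3%) were near the share of all genes (27.2%), and the median was -0.26. On the deposited values 277 were lower and 9 higher of 380, and the median was 0.09 below that of all genes. Clustered protocadherins, whose members share constant exons and are uncertain as single genes, gave 16 higher and 15 lower of 51, and 6 and 16 of 27 as deposited. Solute carriers gave 69 higher and 63 lower of 233, but 57 and 74 by library totals and 17 and 101 of 167 as deposited. Of 56 tested histone genes, 18 were higher and 8 lower, and 4 and 5 of 16 as deposited; many of these messages lack a poly(A) tail, and the libraries were made from polyadenylated RNA. Death receptors, caspases and BCL2 family genes were called in 13 of 31, 7 higher and 6 lower (3 and 16 of 24 as deposited), below the share of all genes (55.3%), with HRK, a BH3-only protein of neurons, higher by 3.42 ± 0.38 and BOK by 2.50 ± 0.20. MHC class I and interferon response genes gave 6 higher and 7 lower of 26 (none and 9 of 14 as deposited), and 25 further members were under the filter.

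In all, 31 genes were listed at 0 in all 3 SH-SY5Y libraries with a mean of 10 or more scaled TPM in Kelly, and 22 were in the reverse state. The first group held PRSS21, a testis serine protease, at 50.6, 74.4 and 69.1 in Kelly, and NETO1, an auxiliary subunit of kainate receptors, at 33.2, 36.8 and 36.6. Both were listed at 0 in BE(2)C. NRIP1, a nuclear receptor corepressor, was at 27.5, 26.7 and 25.4 in Kelly and at 43.8 ± 1.62 in BE(2)C. The reverse group held RAB32, a GTPase of melanosome and mitochondrial traffic, at 29.7, 24.2 and 24.6 in SH-SY5Y, and TCEAL2 at 40.6, 33.6 and 40.7.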
